A study of Mus musculus with 37 samples.

Results

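The genes described here encode the proteins of the cytosolic ribosome. They were chosen by name and level: protein-coding genes whose mouse symbol is Rpl or Rps followed by a number and at most the letter x, l, y or a, together with Rplp0, Rplp1, Rplp2 and Rpsa, without the Rps6k kinases and without pseudogenes, and with a mean level of at least 10 CPM, the read count scaled to the library's effective total, over 37 libraries. Of the 50686 genes in the deposited table, 83 symbols matched. Of these, 80 were protein-coding and 3 were pseudogenes, and 76 of the 80 reached the level, 45 of the large and 31 of the small subunit. All 76 were among the 16728 genes tested. The 4 left out were Rpl13a (8.11 CPM), Rpl24 (7.94 CPM), Rpl39l (0.0783 CPM) and Rpl10l, which is listed at 0. The members nearest to the limit were Rpl39 (16.2 CPM) and Rps28 (16.7 CPM).

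Bulk RNA of gastrocnemius, a fast calf muscle, was sequenced from wild-type animals and from animals in which Nampt is knocked out in skeletal muscle, a genotype that the labels call SMNKO. Nampt makes nicotinamide mononucleotide, the step that limits the salvage of NAD from nicotinamide. Each library is 1 animal. Wild type had 6 libraries aged 2 weeks, 6 aged 4 weeks, 2 aged 6 weeks and 5 aged 8 weeks. Knockout had 5, 5, 2 and 6 at the same ages, and no group received a treatment. The labels do not name a Cre driver or the deleted part of the gene, and the muscle samples also hold cells other than fibres, in which a muscle-specific knockout is not meant to act. Total RNA was depleted of ribosomal RNA, so the counts describe messenger RNAs of ribosomal proteins and not the number of ribosomes.

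A cytosolic ribosome joins a small subunit, which reads the messenger RNA, to a large subunit, which forms the peptide bond. Each subunit holds a single copy of nearly every ribosomal protein, and surplus proteins are degraded, so their genes are usually expressed in step. Many of their messenger RNAs begin with a tract of pyrimidines through which mTORC1 and the LARP1 protein control translation. A few have paralogs with a tissue-specific pattern. Rpl3, a large-subunit protein close to the peptidyl transferase centre, is replaced in mature heart and skeletal muscle by Rpl3l, and Rpl3 is known to return when muscle grows or regenerates.

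The coding sequences of Rpl3 and Rpl3l are shown first because the counts of this pair move in opposite directions, so it matters that reads can tell them apart. Rpl3 lies on chromosome 15 (80077791 to 80091868, minus strand) and Rpl3l on chromosome 17 (24727820 to 24736143, plus strand) of GRCm38 in GENCODE vM21. The first 120 coding bases follow, which span 2 coding exons in each gene. Capitals mark the 31 bases at which the pair differs.
Rpl3, chromosome 15, 80082466 to 80083326, minus strand: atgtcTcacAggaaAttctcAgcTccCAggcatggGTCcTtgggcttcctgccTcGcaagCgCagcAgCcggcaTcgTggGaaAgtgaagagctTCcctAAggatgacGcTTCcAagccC
Rpl3l, chromosome 17, 24727884 to 24728433, plus strand: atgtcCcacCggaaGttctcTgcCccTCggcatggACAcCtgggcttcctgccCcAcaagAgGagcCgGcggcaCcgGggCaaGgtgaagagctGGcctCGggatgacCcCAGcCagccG
Over the 1209 positions aligned without a gap, 74.2% of bases were identical, and the longest identical run was 22 bases. The 2 coding sequences shared 0 words of 38 bases, the length of a read.

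Sequences near the start of the genes were read from RefSeq's table for GRCm38.p6, which has an entry for 56 of the 76 members. Each entry holds 250 bases before and 50 after the annotated start. At least 1 entry began with 5 bases that were all C or T in 16 of the 56 members (28.6%), against 5.28% of the 27025 genes with an entry. The word CTTTCC, searched on both strands over the 300 bases, occurred in 28 of 56 members (50%) and in 29.3% of all genes. The word CCGGAAG, searched in the same way, can overlap CTTTCC at its ends and occurred in 24 of 56 (42.9%) and in 9.93% of all genes. TATAAA occurred in 6 of 56 (10.7%) and in 15.7%. A match describes the letters in this window and does not show that a factor binds.

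The 60 bases before and 20 bases after an annotated start are shown for 4 members that changed in the knockout at 8 weeks. Rpl3l and Rpl10a each have another annotated start, which is not shown. They are printed so that the starts of members that moved can be compared. Capitals mark a match to the 3 words or a start of at least 5 pyrimidines.
Rpl3l, GRCm38.p6, chromosome 17, 24727766 to 24727845, plus strand: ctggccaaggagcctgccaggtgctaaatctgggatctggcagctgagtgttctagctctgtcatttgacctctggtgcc
Rpl10a, GRCm38.p6, chromosome 17, 28328505 to 28328584, plus strand: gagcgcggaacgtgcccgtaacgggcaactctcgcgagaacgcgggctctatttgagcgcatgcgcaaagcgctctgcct
Rpl41, GRCm38.p6, chromosome 10, 128549149 to 128549228, minus strand: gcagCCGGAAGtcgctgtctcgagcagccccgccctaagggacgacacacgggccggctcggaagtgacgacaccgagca
Rps18, GRCm38.p6, chromosome 17, 33955646 to 33955725, minus strand: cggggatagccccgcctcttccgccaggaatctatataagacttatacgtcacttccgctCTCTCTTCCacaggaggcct
Rps18 began with 9 pyrimidines, Rpl41 held CCGGAAG upstream, and neither Rpl3l nor Rpl10a held a marked word in the 80 bases shown. Of the 29 members with an entry that rose in the knockout at 8 weeks, 4 began with the tract, as did 12 of the other 27. Over the 300 bases, CTTTCC occurred in 13 of the 29 and 15 of the 27. CCGGAAG occurred in 9 and 15, and TATAAA in 2 and 4. These splits were not tested, and which members are called higher depends on the rRNA-rich libraries described below.

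Several facts of the libraries touch the results. Total counts ran from 5192700 to 23134727. Nampt averaged 65.1, 128.3, 209.6 and 204 CPM in wild type aged 2, 4, 6 and 8 weeks, and 33.1, 62.8, 49.8 and 49.3 CPM in knockout. The 10 markers of muscle fibres were detected in every group and summed to between 44370 and 257100 CPM per library, so the labelled tissue is seen in all of them. Genes of nuclear ribosomal RNA took from 8.49% to 29.3% of counts in 5 libraries (wild-type animals 3 and 4 and knockout animal 8 at 4 weeks, wild-type animals 34 and 35 at 8 weeks) and at most 1.24% in the others. Animals 34 and 35 are also the only 8-week wild-type libraries of sequencing pool A. In 3 libraries the sex-linked genes differed from the labelled sex (wild-type animal 4 and knockout animal 12 at 4 weeks, knockout animal 42 at 8 weeks). All 8-week knockout animals are labelled male, and wild-type animal 35 of that age is labelled female. At 6 weeks both wild-type animals and knockout animal 20 are labelled male, and knockout animal 19 is labelled female. At 4 weeks both genotypes hold both labelled sexes, and at 2 weeks sex was not collected. Wild-type animal 36 at 8 weeks stood apart from its group, with the lowest sum of fibre markers, 76610 CPM. The scaling factors (TMM), which set each library's effective total, ran from 0.443 to 1.08 in the 8-week wild type and from 1.22 to 1.59 in the 8-week knockout, so results across ages and at 8 weeks depend on them and are also given with library totals alone. Nothing in the labels says more about how animals relate, so p-values measure the spread between these animals.

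Reads from ribosomal protein genes are hard to place because the genome holds many processed copies of them. For each member, the share of its 38-base words that also occur in another annotated gene had a median of 22.2% and ran from 0% to 89.9%. It was 0% for Rpl3l, 36.5% for Rpl3 and under 20% for 29 members. Exons of 25 members overlapped another gene on the same strand, mostly small nucleolar RNAs, and those of 18 overlapped a gene on the other strand. The strand setting of the counting is not given in the sources used here, so the values of these members are uncertain.

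Levels differed widely between members. Per kilobase of exon, the median member had 43.3 CPM. Rplp1, an acidic protein of the stalk that recruits elongation factors, was highest with 448 CPM per kilobase, followed by Rplp0, the base of the stalk, with 249.6, and by Rpl4 with 238, Rps15 with 205, Rpl8 with 194, Rps2 with 173 and Rpl3l with 170.5. The lowest were Rps28 with 9.69, Rpl39 with 11.3 and Rps15a with 11.3 CPM per kilobase. Rpl3, on the same scale, had 17.2 CPM per kilobase. By this measure Rpl3l stood near the top of these RNAs in this muscle and Rpl3 near the bottom. The length used is that of all annotated exons together, 1643 bases for Rpl3l and 3175 for Rpl3. Their coding sequences have 1221 and 1209 bases, so the order of members depends on the annotation. Without division by length, Rpl3l averaged 280.2 CPM and Rpl3 54.5 CPM.

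In wild-type muscle Rpl3 fell with age, and Rpl3l rose against it, a ratio that holds under any scaling. Rpl3 in the 6 wild-type libraries of 2 weeks had a lowest value of 62.6, a median of 68.4 and a highest of 70.8 CPM. At 4 weeks it ran from 28.3 to 47.4 around a median of 35.3, at 6 weeks it was 28.1 and 30.9, and at 8 weeks it was 22.2, 20.3, 34.9, 20.4 and 26.1 CPM in animals 34 to 38. No library of 4, 6 or 8 weeks reached the lowest one of 2 weeks. Rpl3l ran from 248 to 272 CPM at 2 weeks and from 322 to 395 at 4 weeks. It was 365 and 313 CPM at 6 weeks, and 297, 380, 213, 365 and 342 CPM at 8 weeks. The 8-week value of 213 belongs to animal 36. The ratio of Rpl3l to Rpl3 counts, which needs no scaling factor, averaged 3.82 ± 0.169 (SD, n = 6) in the 2-week group and 10.3 ± 2.77 (n = 6) in the 4-week group. The averages of the 6-week and 8-week groups were 11.6 ± 2.05 (n = 2) and 13.8 ± 5.01 (n = 5).

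From 2 to 4 weeks in wild type, Rpl3 fell by 0.92 log2 units (SE 0.15, edgeR adjusted p = 1.02e-05). Rpl3l rose by 0.47 (SE 0.13, adjusted p = 0.00307) over the same weeks, but with library totals alone its log2 fold change was -0.04, at a shift of -0.53 in the median of all genes. From 4 to 8 weeks Rpl3 fell again, by 0.50 (SE 0.16, adjusted p = 0.0364), and Rpl3l gave -0.16 (SE 0.14, adjusted p = 0.451).

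In the 8-week knockout this pattern was inverted. Rpl3 was 117.5, 109.2, 78.9, 66.8, 81.8 and 87.3 CPM in knockout animals 39 to 44. Each of these exceeds the highest wild-type value of that age, 34.9 CPM, and also the highest 4-week knockout value, 61.0 CPM. The lowest was animal 42. Rpl3l was 101.7, 128.6, 225, 177.5, 175.8 and 155.5 CPM in the same animals. Its groups overlap at 1 point, since knockout animal 41 lies above wild-type animal 36. Animals 39 and 40 had the highest Rpl3 and the lowest Rpl3l.

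The log2 fold change of Rpl3 at 8 weeks was 1.79 (SE 0.17, edgeR adjusted p = 2.91e-10), a 3.47-fold rise from 24.8 ± 6.12 (n = 5) to 90.2 ± 19.3 CPM (n = 6). Rpl3l fell by 0.99 log2 units (SE 0.13, adjusted p = 2.44e-07), from 319 ± 67.2 to 161 ± 42.9 CPM. Without the rRNA-rich libraries the values were 1.60 for Rpl3 and -0.94 for Rpl3l, and without these and animal 36 they were 1.84 and -1.13. Within pool A they were 2.33 and -1.10, and within pool B 1.51 and -0.88. With library totals alone Rpl3 gave 2.60 and Rpl3l gave -0.14 (adjusted p = 0.525), at a shift of 0.82 in the median of all genes. Set against that shift, Rpl3 still lay above and Rpl3l below the median gene.

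The ratio of Rpl3l to Rpl3 in the knockout followed wild type at 2 weeks and parted from it later. The 2-week and 4-week averages were 3.67 ± 0.426 and 7.17 ± 2.57 (n = 5 each), and those of 6 and 8 weeks were 7.93 ± 3.63 (n = 2) and 1.91 ± 0.794 (n = 6). At 8 weeks the knockout libraries ran from 0.866 to 2.85 and the wild-type libraries from 6.10 to 18.7, with no overlap. As log2 values the knockout lay 2.88 below wild type at 8 weeks (exact permutation test, two-sided p = 0.00216, the smallest that 462 arrangements allow, adjusted over the 4 ages p = 0.00866). Differences were -0.06 at 2 weeks (exact permutation p = 0.457), -0.56 at 4 weeks (exact permutation p = 0.0758, adjusted p = 0.152) and -0.61 at 6 weeks (exact permutation p = 0.667, where 0.333 is the smallest that 2 against 2 allow). The 8-week difference was -3.47 within pool A and -2.38 within pool B, where so few libraries remain that the adjusted p of each is 0.3.

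**Figure D1:**
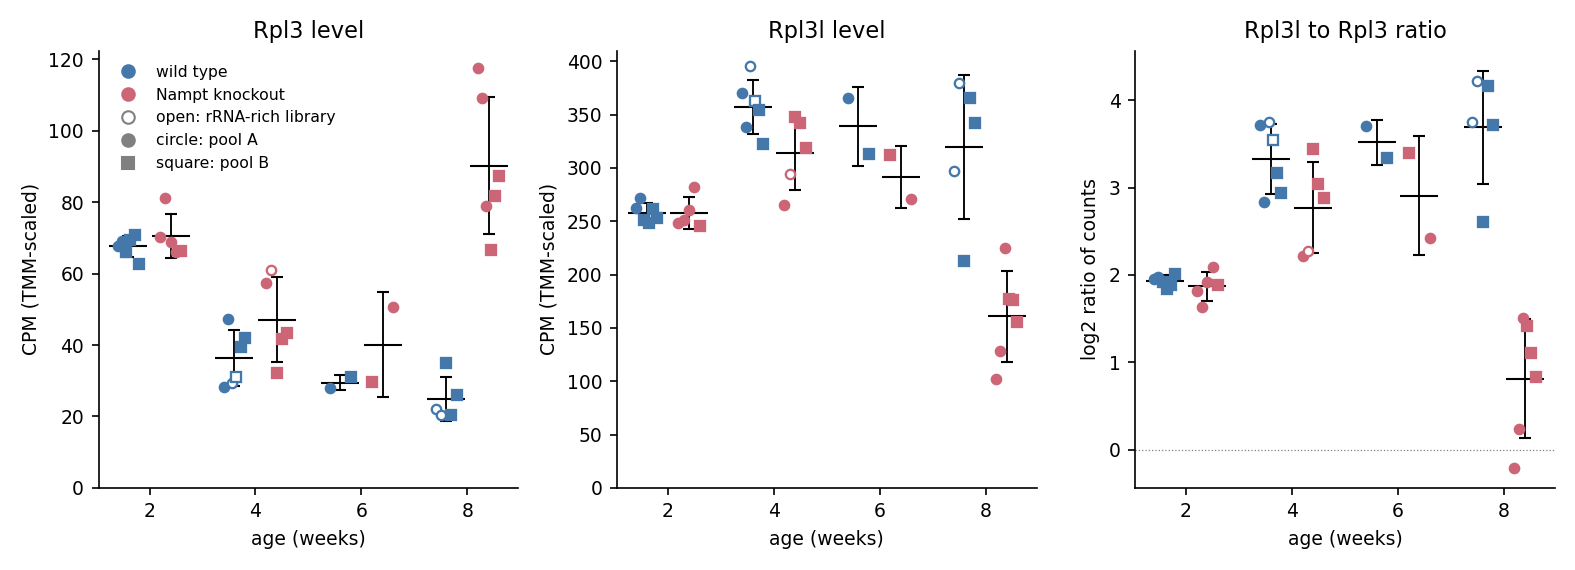
Rpl3 and Rpl3l levels (CPM, scaled with TMM factors) and the log2 ratio of their counts, 1 point per library, by age in weeks; bars are means and whiskers 1 SD, circles and squares mark pools A and B, open symbols the rRNA-rich libraries. At 8 weeks all 6 knockout libraries lie above all 5 wild-type libraries for Rpl3 and below them for the ratio.

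The change of the knockout effect between 4 and 8 weeks was tested within the same model. For Rpl3 the effect was larger at 8 weeks by 1.44 log2 units (SE 0.23, edgeR adjusted p = 3.07e-05), and for Rpl3l it was lower by -0.80 (SE 0.19, adjusted p = 0.00199). With library totals alone the change for Rpl3l was 0.03, at a shift of 0.77 in the median of all genes.

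Other members rose in the 8-week knockout too, by less than Rpl3. Of the 76, 39 were called higher, where 26.2% of all genes tested were called higher, and 1, Rpl3l, was called lower, where 26.3% of all genes were. A gene is called when its Benjamini-Hochberg adjusted p lies below 0.05 over all 16728 genes. The median log2 fold change over the members was 0.24 and that over all genes tested 0.03, and 69 of 76 members lay above 0. The counts were 21 of 45 in the large and 18 of 31 in the small subunit, with medians of 0.23 and 0.26. Among the 29 members with under 20% of shared words, 15 were called higher and 1 lower.

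The number of members called depended on a few libraries. Without the rRNA-rich libraries 18 were called higher and 2 lower, and the median was 0.11. Leaving out wild-type animal 34 alone gave 24 higher and 2 lower, where 4082 of 16768 genes were higher. Leaving out knockout animal 42 gave 49 and 1, where 4184 of 16731 genes were higher. Within pool A, whose wild-type libraries are both rRNA-rich, 29 members were higher and 1 lower, where 2406 of 17532 genes were higher and 1880 lower, so there the share of members exceeds that of all genes. Within pool B 14 were higher and 1 lower, with a median of 0.11. Among all genes, 3900 of 16955 were called higher without the rRNA-rich libraries and 3306 of 16727 within pool B, so in these 2 subsets the share of members called higher is near that of all genes. The medians of all genes were 0.01 and -0.01 there. With library totals alone 75 were called higher and 0 lower, with a median of 1.06 at the shift of 0.82 in all genes. Among all genes the split then went from 4385 higher and 4405 lower to 10718 and 501.

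**Figure D2:**
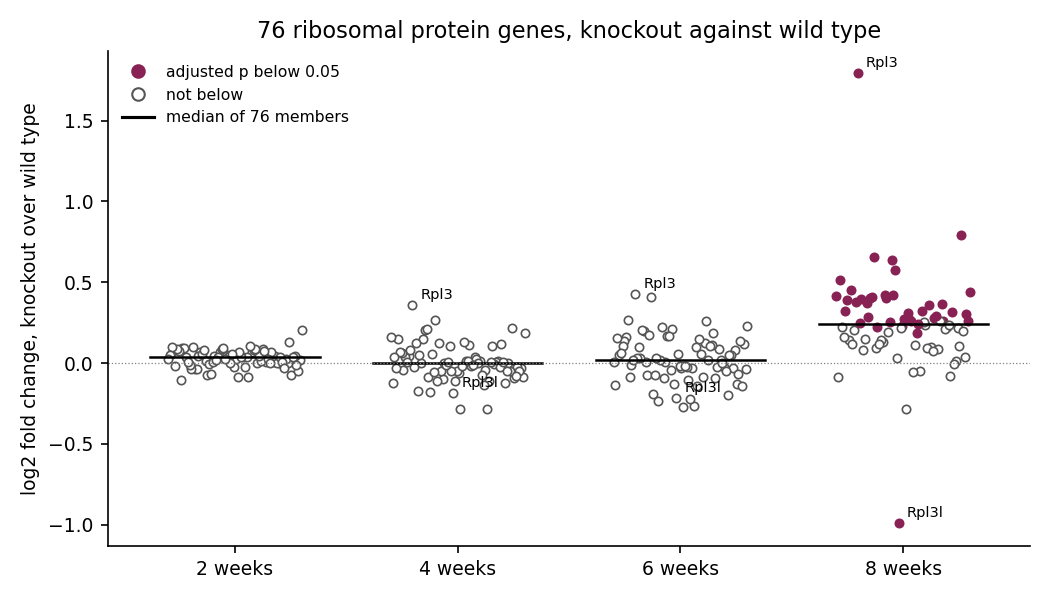
Log2 fold change of knockout over wild type for the 76 members at each age; filled points have an adjusted p below 0.05 and the bar is the median. The members lie around 0 at 2, 4 and 6 weeks, most of them slightly above it at 2 weeks. They shift upward at 8 weeks, with Rpl3 at 1.79 and Rpl3l at -0.99.

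After Rpl3, the largest rises at 8 weeks were in Rps28, Rpl41, Rpl10a, Rps19, Rps18, Rps27a and Rps14. Rps28, a small-subunit protein near the exit of the messenger RNA, was 12.6, 6.78, 12.1, 7.21 and 12.8 CPM in wild-type animals 34 to 38 and 22.01, 18.7, 19.8, 15.7, 18.4 and 19.1 CPM in knockout animals 39 to 44. The groups did not overlap, and the log2 fold change was 0.79 (SE 0.19, edgeR adjusted p = 0.000935). Within pool A it was 1.17 (adjusted p = 0.0697). Its exons overlap Kank3 on the other strand, and Rps28 is the member with the lowest level per kilobase.

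Rpl41, a short basic peptide of the large subunit, was 39.97, 34.8, 51.5, 40.5 and 43.95 CPM in wild type and 73.3, 66.5, 78.7, 48.9, 66.4 and 75.6 CPM in knockout, in the same order of animals. The groups overlap at knockout animal 42. The log2 fold change was 0.65 (SE 0.12, adjusted p = 2.49e-05 in edgeR).

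Rpl10a, a large-subunit protein at the L1 stalk, was 34.3, 33.6, 34.1, 32.8 and 45.5 CPM in wild type and 53.3, 64.9, 59.2, 48.4, 59.4 and 56.8 CPM in knockout. All knockout libraries lay above all wild-type libraries, with a log2 fold change of 0.64 (SE 0.10, edgeR adjusted p = 1.28e-06).

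Rps19, a small-subunit protein needed for maturation of its ribosomal RNA and mutated in Diamond-Blackfan anaemia, was 39.97, 46.2, 59.3, 45.0 and 59.7 CPM in wild type and 79.1, 83.2, 74.1, 60.2, 75.9 and 78.8 CPM in knockout. The groups did not overlap, and the log2 fold change was 0.58 (SE 0.10, edgeR adjusted p = 1.49e-05).

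Rps18, in the head of the small subunit, averaged 59.8 ± 16.5 CPM in wild type (n = 5) and 86.5 ± 8.77 in knockout (n = 6), a log2 fold change of 0.52. Within pool B it was 0.20 (edgeR adjusted p = 0.114), and its lowest wild-type value, 34.3 CPM, is that of the rRNA-rich animal 34. Rps27a, made as a fusion with ubiquitin, had 50.4 ± 4.58 CPM in wild type and 69.4 ± 7.68 in knockout, with no overlap and a log2 fold change of 0.45. Rps14, on the platform of the small subunit, gave 105 ± 26.02 and 139 ± 12.6 CPM and a log2 fold change of 0.44 (SE 0.14, edgeR adjusted p = 0.00707). Without the rRNA-rich libraries that of Rps14 was 0.22 (adjusted p = 0.219), and within pool B it was 0.19 (adjusted p = 0.146). The other 6 of these 7 kept their call without the rRNA-rich libraries.

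In 7 of the 76 members the 8-week groups did not overlap, and all 7 were higher in knockout. Over all genes tested, the groups did not overlap with higher values in knockout in 13.5% and with lower values in 10.7%, so the members' count is no larger than that of all genes. Beside Rpl3, Rps28, Rpl10a, Rps19 and Rps27a they included Rps6, the substrate of S6 kinase. Rps6 had 37.6 ± 1.89 CPM in wild type and 47.1 ± 3.48 in knockout, and its log2 fold change was 0.31 (SE 0.10, edgeR adjusted p = 0.0129).

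At the other end of the order, 7 members lay below 0 at 8 weeks. Rpl3l had a log2 fold change of -0.99 and Rps27l of -0.28 (SE 0.14, edgeR adjusted p = 0.0833), and the others, which include Rpl36, Rps2, Rpl30 and Rpl4, lay between -0.09 and -0.00. Rpl4, which lines the exit tunnel and is among the most abundant members, was 436 ± 45.7 CPM in wild type and 437 ± 42.8 in knockout. Of the 2 stalk proteins encoded by Rplp1 and Rplp2, Rplp1 was called higher with 0.27 (SE 0.07, edgeR adjusted p = 0.002) and Rplp2 gave 0.04 (SE 0.09, adjusted p = 0.757). Rpl5 and Rpl11, which together with 5S ribosomal RNA can bind the p53 regulator Mdm2, gave 0.36 (SE 0.09, adjusted p = 0.0015) and 0.22 (SE 0.10, adjusted p = 0.0656). The differences between these genes were not tested, and Rps6, Rpl4, Rplp1, Rplp2, Rpl5 and Rpl11 were picked for their roles or position after their values were seen.

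**Figure D3:**
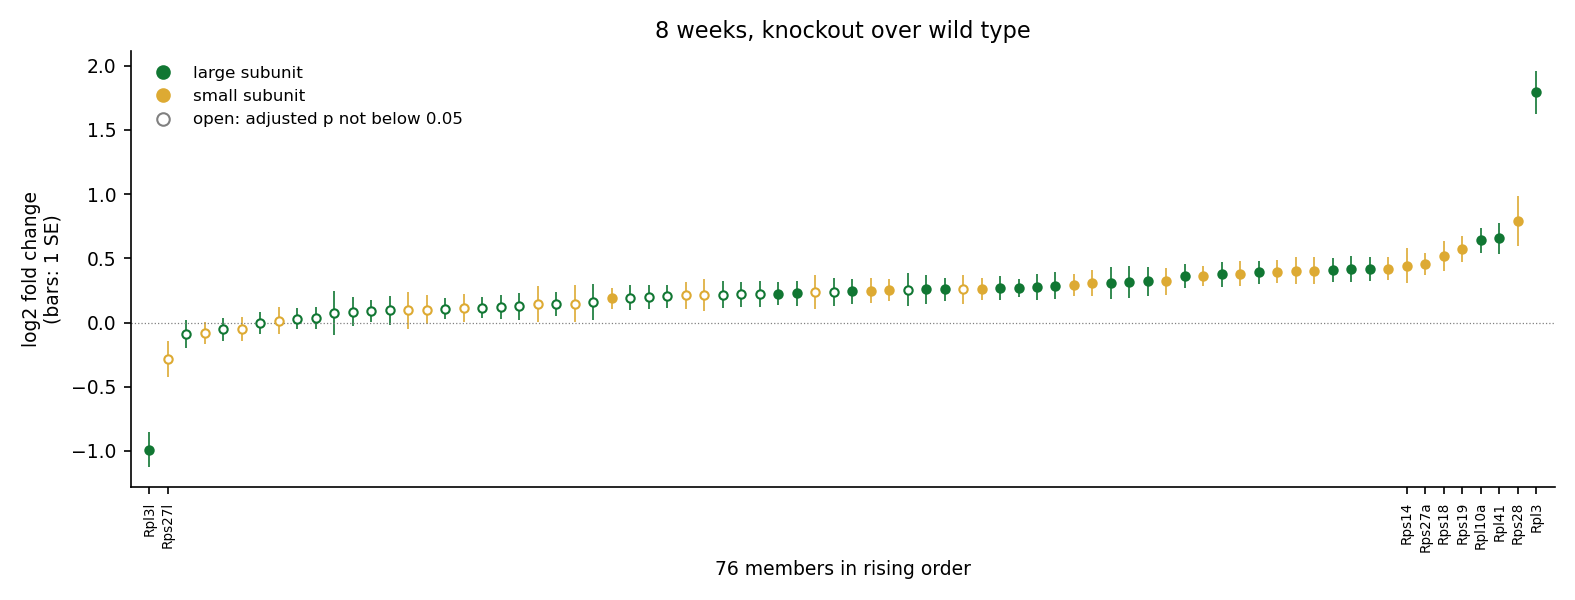
Log2 fold change of knockout over wild type at 8 weeks for each of the 76 members in rising order, with bars of 1 SE, coloured by subunit and with symbols for 10 of them; open points did not reach an adjusted p below 0.05. Members of both subunits mix along the order, and Rpl3l and Rpl3 stand at the ends.

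Other genes moved with this result. At 8 weeks all 10 macrophage markers were called higher, and their summed level ran from 863.5 to 1863 CPM in knockout against 129 to 164 in wild type. All 7 markers of satellite cells and immature muscle were called higher, with sums of 397 to 1599 CPM against 35.1 to 93.2. Of the 10 fibre markers 8 were called lower, with sums of 44370 to 125100 against 76610 to 165400 CPM. All 5 endothelial and all 5 erythroid markers were called lower, 1 of 8 lymphocyte markers was lower, and 3 of 8 fibroblast markers were higher and 2 lower. No defining marker of these lists was at 0 in all libraries of both groups, and Cd3g was at 0 in the 8-week wild type. In bulk muscle, fewer cells of a type and less RNA per cell cannot be told apart, and the part of these cells in the rise of the ribosomal proteins and of Rpl3 was not tested.

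The summed level of the 76 members gives the same order. At 8 weeks the wild type had 6489 ± 586 CPM (n = 5) and the knockout 7444 ± 685 (n = 6), and the groups overlap. The lowest knockout library had 6217 CPM and the highest wild-type library 7264. As a share of raw counts, the members took 0.508% ± 0.211 in wild type and 0.995% ± 0.133 in knockout. In wild type this share was 0.2499% and 0.323% in the rRNA-rich animals 34 and 35. It was 0.6887%, 0.5705% and 0.7098% in animals 36, 37 and 38, and the knockout libraries ran from 0.7635% to 1.13%.

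**Figure D4:**
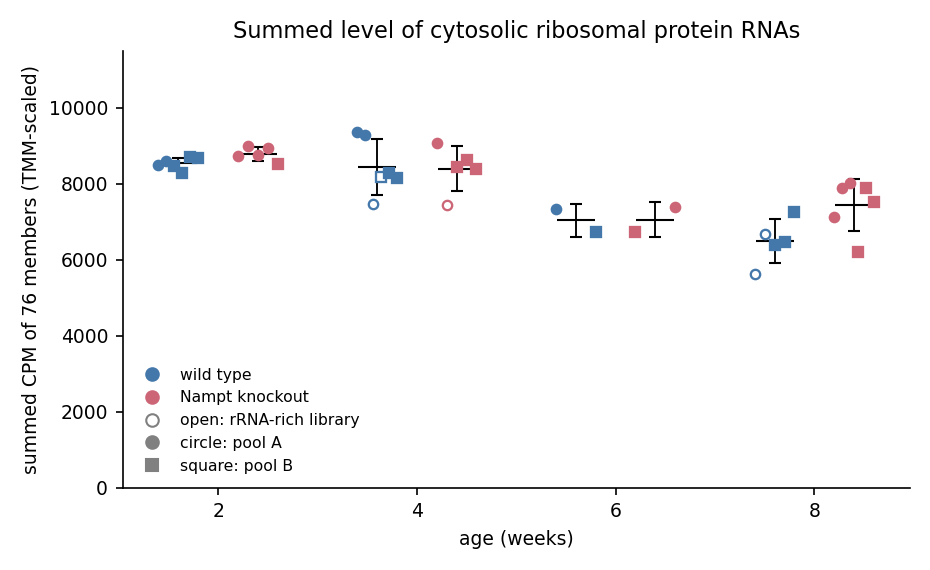
Summed CPM of the 76 members, 1 point per library, by age in weeks; bars are means and whiskers 1 SD, and open symbols mark the rRNA-rich libraries. Sums average 8537 CPM in the 2-week wild type, and the lowest library of all is an 8-week wild type at 5637 CPM.

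Before 8 weeks no member was called in the knockout. At 2 weeks 0 of 76 were called in edgeR, 0 had an unadjusted p below 0.05, and 0 were called in DESeq2, where 0.0598% of all genes were called in edgeR. The median log2 fold change was 0.04, with members between -0.11 and 0.21. Above 0 lay 34 of 45 members of the large and 24 of 31 of the small subunit. At 4 weeks 0 of 76 were called in edgeR, 4 had an unadjusted p below 0.05, and 1 was called in DESeq2, against 5.66% of all genes called in edgeR. The median was 0.00 and the range -0.29 to 0.36. At 6 weeks, with 2 against 2 libraries, 0 of 76 were called in edgeR and 0 in DESeq2, 1 had an unadjusted p below 0.05, and 9.67% of all genes were called in edgeR.

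The members with the smallest p at these ages were Rps14 (0.21), Rpl22 (0.13) and Rps27a (0.09) at 2 weeks. They were Rpl3 (0.36, SE 0.16, edgeR adjusted p = 0.176), Rpl18 (0.21) and Rpl22 (0.22) at 4 weeks. At 6 weeks they were Rpl41 (0.41, SE 0.19, edgeR adjusted p = 0.162), Rps27a (0.27) and Rpsa (-0.27), all values being log2 fold changes. At 4 weeks Rpl3 was 57.3, 61.0, 32.2, 41.7 and 43.4 CPM in knockout animals 7, 8, 10, 11 and 12, and 28.3 to 47.4 in wild type, so the values of animals 7 and 8 exceed all 6 of wild type. At 6 weeks knockout animal 20 had 50.5 CPM and animal 19 had 29.8, the second inside the wild-type range of 28.1 to 30.9. These knockout animals also differ in labelled sex and in pool.

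Across the whole group, the knockout effect changed between 4 and 8 weeks for 14 members. It was higher at 8 weeks in 13, where 13.5% of all genes were called higher, and lower in 1, where 13.8% were called lower, so the share called higher is near the background. The median over the members was 0.25 and that over all genes 0.00. Leaving out wild-type animal 34 gave 8 higher and 1 lower, where 1973 of 16768 genes were higher, and leaving out the rRNA-rich libraries gave 6 and 1, where 2063 of 16955 were. Pool A alone gave 5 higher and 0 lower, where 645 of 17532 genes were higher, and pool B alone 1 and 1, where 1327 of 16727 were. Scaled by library totals alone it was 71 and 0, where 7176 of 16728 genes were higher.

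Some members also differed between ages in wild type. From 2 to 4 weeks 7 of 76 rose, where 24.2% of all genes rose, and 14 fell, where 23.6% fell, so neither share of members exceeds that of all genes. The median was -0.10 log2 units, against -0.04 for all genes. The split depends on scaling: with RLE factors 3 rose and 24 fell, and with library totals alone 0 rose and 52 fell. All genes shifted the same way, to 3375 rises and 4583 falls and to 360 rises and 7617 falls of 16728. Within pool A 0 members rose and 4 fell, where 1354 of 17532 genes rose and 1859 fell. Within pool B 2 rose and 13 fell, where 2808 of 16727 genes rose and 2536 fell.

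The falls from 2 to 4 weeks in wild type were led by Rpl3 (-0.92), Rps14 (-0.60), Rpl41 (-0.52), Rps10 (-0.39) and Rps19 (-0.38). Rps12 followed with -0.36, Rpl39 with -0.33 and Rps27a with -0.32. Rps14 went from 177 ± 5.62 CPM at 2 weeks to 116 ± 29.4 at 4 weeks (n = 6 each). The rises included those of Rpl3l (0.47), Rpl23a (0.43), Rps27l (0.39), Rps2 (0.32), Rpl28 (0.30) and Rpl4 (0.23). Under library totals alone each of these named rises turns to a value below 0. Leaving out wild-type animal 1 of 4 weeks took the calls of Rpl23a (0.15, edgeR adjusted p = 0.242), Rpl28 (0.16), Rps27l (0.27) and Rpl4 (0.17), and also that of Rpl39 among the falls (-0.28). Rpl23a was 148.9 CPM in that animal and 49.3 to 71.98 in the other 5. Rps2, at the entry of the messenger RNA channel, went from 302 ± 9.44 to 381 ± 48.6 CPM, with no overlap of the groups. It lies beside Rpl3l on chromosome 17.

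From 4 to 8 weeks the wild-type members fell together. Of 76, 56 fell, where 7.59% of all genes fell, and 0 rose in edgeR and in DESeq2, where 7.80% rose in edgeR. The median was -0.38, against 0.01 for all genes, and all 76 members lay below 0, between -0.81 and -0.11. In the large subunit 38 of 45 fell and in the small subunit 18 of 31. Without the rRNA-rich libraries 37 of 76 members and 1058 of 16955 genes fell, and the median was -0.32. Within pool A 9 members fell, with 121 of 17532 genes, and within pool B 16 fell, with 640 of 16727 genes, at medians of -0.53 and -0.29. With library totals alone 8 fell, with 583 of all genes, and the median was -0.52 against -0.10 for all genes.

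The largest falls were in Rps28 (-0.81), Rpl23a (-0.74), Rps26 (-0.65), Rpl32 (-0.62), Rpl36a (-0.61), Rpl28 (-0.57), Rps7 (-0.56) and Rpl10a (-0.56). Rpl36a went from 33.9 ± 4.61 CPM at 4 weeks (n = 6) to 21.8 ± 2.96 at 8 weeks (n = 5), with no overlap and an edgeR adjusted p of 2.09e-05. Rps28 had 40.2 CPM in wild-type animal 1 at 4 weeks, where the other 5 libraries ran from 12.6 to 17.7. The same animal was highest for Rpl23a (148.9 CPM against 49.3 to 71.98), Rps26 (214.5 against 80.9 to 105) and Rpl28 (121 against 59.5 to 79.6). Without it the falls were -0.51 for Rps28, -0.46 for Rpl23a, -0.41 for Rps26 and -0.42 for Rpl28, and all 4 were still called. Without the rRNA-rich libraries and animal 36, Rpl23a, Rps26 and Rpl28 lost their calls (edgeR adjusted p = 0.0918, 0.0884 and 0.0547). The members that changed least were Rpl22 (-0.11), Rps27 (-0.13), Rpl30 (-0.15), Rps14 (-0.16) and Rpl3l (-0.16).

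In the knockout, 1 member rose from 2 to 4 weeks, where 20.3% of all genes rose, and 13 fell, where 18% fell, a share of members near the background. The riser was Rpl10 (0.30), which gave -0.32 with library totals alone. The falls were led by Rps14 (-0.62), Rpl41 (-0.62), Rpl3 (-0.55) and Rps27a (-0.38), then Rpl35a (-0.37), Rpl32 (-0.36), Rps12 (-0.35) and Rpl9 (-0.34). The call of Rpl10 was lost without knockout animal 7 (0.22, edgeR adjusted p = 0.12). Pool A alone gave 5 falls, where 1774 of 17532 genes fell, pool B alone gave 3, where 946 of 16727 fell, and no member rose in either.

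From 4 to 8 weeks in the knockout 2 members rose, where 23.1% of all genes rose, and 20 fell, where 21.5% fell. With all libraries the share that fell is again near the background, but it depends on the rRNA-rich libraries, as given below. The risers were Rpl3 (0.94, SE 0.16, edgeR adjusted p = 1.69e-05) and Rpl41 (0.30, SE 0.12, adjusted p = 0.035). The call of Rpl41 was lost without the rRNA-rich libraries (0.22, adjusted p = 0.0979), in pool B (0.16, adjusted p = 0.352), with a sex term, with no filter and in 7 of the 11 fits that leave out 1 library. The falls were led by Rpl3l (-0.97, SE 0.13, adjusted p = 8.4e-07), Rps26 (-0.37) and Rps2 (-0.36), with Rpl36, Rps27l and Rpl29 also among the largest (-0.34 to -0.33). Rps26 lost its call in 4 and Rps27l in 6 of those 11 fits. Both also lost it with no filter, with a sex term, within pool A and without the libraries of doubtful sex. Rps26 lost it too with no pool term, within pool B and without the rRNA-rich libraries. The median was -0.16. With library totals alone the split turned to 40 higher and 0 lower, with a median of 0.50 at a shift of 0.68 in all genes. The median of the members thus lay below that of all genes. The number of all genes called in this setting is not given here, so the 40 are not a result about the members. Without knockout animal 8 of 4 weeks, which is rRNA-rich, 1 rose and 35 fell, where 4072 of 16774 genes fell. Without all rRNA-rich libraries 1 rose and 46 fell, where 4140 of 16955 genes fell. Pool A alone gave 1 rise and 1 fall, where 1209 of 17532 genes fell, and pool B alone 1 and 27, where 3106 of 16727 fell. The share of members that fell exceeds that of all genes in pool B and in the fits without animal 8 or without all rRNA-rich libraries. The wild-type and knockout comparisons with age use different animals, but each shares its 4-week group with the comparison before it.

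**Figure D5:**
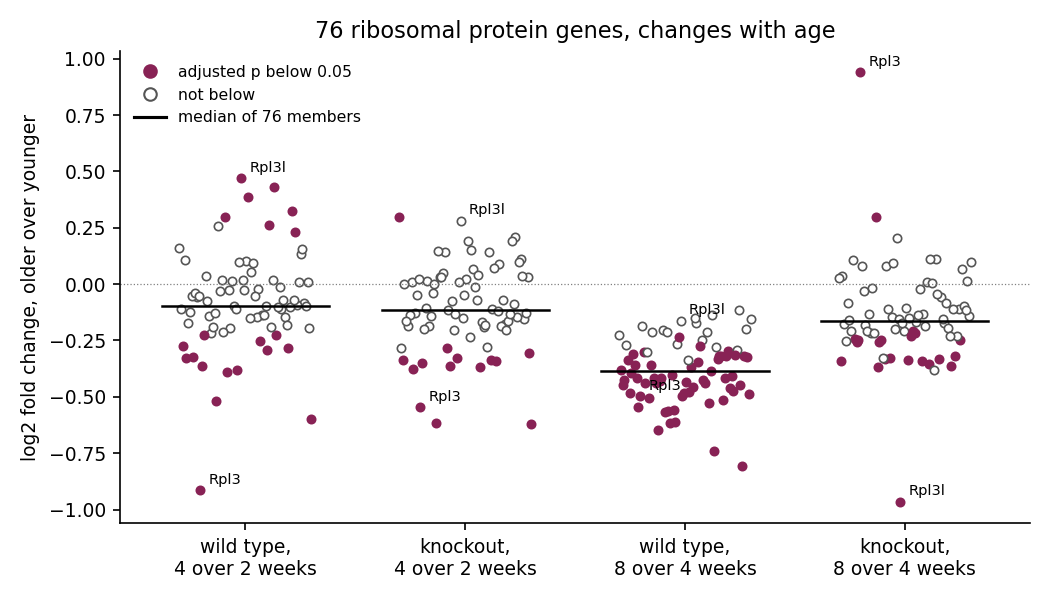
Log2 fold change with age for the 76 members in wild type and in knockout; filled points have an adjusted p below 0.05 and the bar is the median. From 4 to 8 weeks all wild-type members lie below 0, while in knockout 16 lie above 0 and Rpl3 reaches 0.94.

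In the 3 other pairs of ribosomal protein paralogs looked at, no pair had calls in opposite directions in the 8-week knockout. Rps27l, a p53-responsive paralog of Rps27, had 36.5 ± 8.64 CPM in 8-week wild type (n = 5) and 30.03 ± 4.58 in 8-week knockout (n = 6), while Rps27 was 66.6 ± 9.20 and 72.7 ± 9.40 CPM. Neither was called. Rpl22l1, the paralog of Rpl22, was 14.8 ± 6.07 CPM in wild type and 14.9 ± 1.69 in knockout, with a log2 fold change of -0.03 (SE 0.19). Rpl22 gave 0.22 (SE 0.10, edgeR adjusted p = 0.0816). Rpl36al, a near copy of Rpl36a, gave 0.15 (SE 0.13, adjusted p = 0.351), where Rpl36a was called higher with 0.42 (SE 0.09, adjusted p = 0.000302). Of these pairs only that of Rpl3 and Rpl3l was tested as a ratio.

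Of 8 genes tested that encode ribosomal proteins or close relatives outside the naming rule, 3 were called higher in the 8-week knockout and 0 lower, where 26.2% of all genes were called higher. These were Fau (0.40), which encodes Rps30 as a fusion protein, Rack1 (0.35), a scaffold on the small subunit, and Rps3a1 (0.26). From 4 to 8 weeks in wild type 4 of the 8 fell and 0 rose, where 7.59% of all genes fell and 7.8% rose. The excluded Rpl13a, below the level limit, had 5.61 ± 0.699 CPM in wild type and 9.73 ± 1.53 in knockout at 8 weeks, a log2 fold change of 0.83 (SE 0.12, edgeR adjusted p = 3.94e-07). With a limit of 1 CPM, 78 genes counted as members, and 40 were called higher and 1 lower.

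Ribosome assembly genes were called in both directions in the 8-week knockout. Of 63 tested, 12 were called higher and 14 lower, where 26.2% of all genes were called higher and 26.3% lower. The median was 0.02. The smallest p belonged to Pno1 (-0.57) and Ltv1 (-0.75), which finish the small subunit, to Polr1c (0.59), a subunit of RNA polymerases I and III, and to Rrn3 (-0.42), which recruits RNA polymerase I. From 2 to 4 weeks in wild type 34 of 63 rose and 1, Mdn1, fell, with a median of 0.26, where 24.2% of all genes rose and 23.6% fell. From 4 to 8 weeks 1, Nop56, fell and 0 rose, where 7.59% of all genes fell and 7.8% rose. These shares are descriptions, and the difference between the assembly genes and the ribosomal proteins was not tested.

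Among 36 translation factors, 7 were called higher and 11 lower in the 8-week knockout, against 26.2% and 26.3% of all genes. Eef1a1, the elongation factor that is replaced by Eef1a2 in mature muscle, had 319 ± 58.3 CPM in wild type and 1075 ± 207 in knockout, and its log2 fold change was 1.74 (SE 0.14, edgeR adjusted p = 1.44e-11). Eef1a2 fell from 1465 ± 186 to 902 ± 228 CPM, by 0.70 log2 units (SE 0.13, adjusted p = 3.73e-05). Pabpc1, the poly(A) binding protein, rose by 1.30 and Eif2s2 fell by 0.67. With age in wild type Eef1a1 fell by 0.90 between 2 and 4 weeks, then by 0.58 until 8 weeks, and Eef1a2 rose by 0.64, then gave -0.21 (edgeR adjusted p = 0.296). Eef1a2 was picked after its values were seen, as the muscle partner of Eef1a1.

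Of 22 genes of mTORC1 and Myc, which regulate ribosome production, 3 were called higher and 8 lower in the 8-week knockout. Of all genes tested, 26.2% were called higher and 26.3% lower. The list was not split into activators and inhibitors, so these counts give no direction for the pathway. Rps6kb1, the S6 kinase, fell by 0.58, Akt1s1 by 0.68, Tsc1 by 0.52 and Rheb by 0.39 log2 units. Myc, an activator of ribosomal protein genes, was 2.93 ± 0.885 CPM in wild type and 7.61 ± 2.34 in knockout, a log2 fold change of 1.41 (SE 0.34, edgeR adjusted p = 0.00093). In wild type Myc fell by 1.36 from 4 to 8 weeks (SE 0.35, adjusted p = 0.00749).

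The mitochondrial ribosome, a separate machine with its own proteins, gave other counts. Of 77 genes tested, 39 were called lower and 1, Mrpl17, higher in the 8-week knockout, with a median of -0.29. Among all genes, 26.3% were called lower and 26.2% higher. The log2 fold change was -0.88 for Mrps5, -1.204 for Mrpl42 and -0.71 for Mrpl18. From 2 to 4 weeks in wild type 43 of 77 rose and 0 fell, and from 4 to 8 weeks 2 rose and 7 fell. The shares of all genes were 24.2% and 23.6% in the first interval, and 7.8% and 7.59% in the second. The difference between the cytosolic and mitochondrial groups was not tested.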

How the data were processed

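The authors deposited a table of whole-number counts per gene for 37 libraries of gastrocnemius RNA. Per the labels' protocols, total RNA was depleted of ribosomal RNA, made into stranded libraries and sequenced as pairs of 38-base reads. Per the submitters' processing notes, mm10, edgeR 3.22.0, featureCounts 1.5.2 and STAR 2.5.2b were used, in roles not stated. The annotation, the strand setting and whether reads or pairs were counted are not given in the sources used here.

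Symbols and positions came from GENCODE vM21 (50462 of 50686 IDs matched) and promoters from RefSeq's GRCm38.p6 table. Genes were kept by filterByExpr (minimum count 10, minimum total 15) in edgeR 4.0.16 (R 4.3.3), scaled by TMM, and fitted over all libraries by the robust quasi-likelihood test with 8 groups and the sequencing pool, leaving 28 residual degrees of freedom. P-values were adjusted by Benjamini-Hochberg over 16728 genes, and those below 0.05 are called. CPM values use the TMM totals. The fit was tested on counts simulated from a profile shared by all libraries, without a pool effect or differences in ribosomal RNA. That test does not address the scaling of these libraries.

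The median total count was 16827002, and low counts limit genes near 10 CPM most. Members named are Rpl3, Rpl3l and other paralogs, and in each comparison the 8 largest called rises and falls, or with fewer than 3 calls the 3 smallest p. From related lists up to 4 with the smallest p are named. The members and lists were chosen with earlier results of these data known. Alternatives were RLE factors, library totals, no filter, no pool term, single pools, a sex term, DESeq2 1.42.0, libraries left out and a 1 CPM limit. Leaving out the 3 libraries with a doubtful sex, or animal 36 together with the rRNA-rich ones, was chosen after seeing the data. The values of a few members are not reported here.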

Additional observations from a re-analysis of the deposited data

Results flagged for a closer look

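Of 66 groups of libraries examined over the members described one by one, 3 held a library far from the others. The criterion is the gap to the nearest library, divided by the range of the group, against Dixon's critical value at the 95% level, which by its construction picks about 1 in 20 groups. Rpl10a was 45.5 CPM in wild-type animal 38 at 8 weeks, where the other 4 libraries lay between 32.8 and 34.3. Rpl3 was 81.2 CPM in knockout animal 28 at 2 weeks, where the others reached at most 70.3. Rps28 was 40.2 CPM in wild-type animal 1 at 4 weeks, where the others reached at most 17.7.

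The knockout effect differed between 4 and 8 weeks in 14 members, by the interaction term of the edgeR model, and the values of 13 follow. It was lower at 8 weeks for Rpl3l, by -0.80 log2 units. It was higher by 1.44 for Rpl3, 0.88 for Rps28, 0.74 for Rpl41, 0.65 for Rpl10a and 0.50 for Rpl5. It was higher by 0.48 for Rps18, 0.47 for Rps19, 0.46 for Rps7, 0.42 for Rps27a and 0.41 for Rpl36a, and by 0.39 for Rpl9 and 0.37 for Rpl12. Without the rRNA-rich libraries Rps18 gave 0.15 (edgeR adjusted p = 0.462), Rps19 0.26 (adjusted p = 0.209) and Rps7 0.30 (adjusted p = 0.107), and none of the 3 was called. Rps18 gave 0.32 and Rps7 0.38 without wild-type animal 34, with no call, and Rps18 lost its call in 4 and Rps7 in 2 of the fits that leave out 1 library. The single high library of Rps28 at 4 weeks is in the wild-type group of this comparison.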

How the results depend on the processing

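The number of members called, in either direction, moved by over 1.5 times in several settings, and the cause was not tested. In the settings for which it is given above, the number of all genes called changed as well. It is not given for no filter, the sex term, DESeq2, the libraries of doubtful sex, or the rRNA-rich libraries together with animal 36. Nor is it given for most fits that leave out 1 library, for library totals in the knockout between ages, or for pool A at 4 weeks. The counts below therefore show how calls depend on the setting and are not results about the members alone. For knockout against wild type at 8 weeks (40 called) it was 75 with library totals, 15 within pool B, 20 without the rRNA-rich libraries, 17 without these and wild-type animal 36, and 26 to 50 when 1 library was left out, the lowest without wild-type animal 34. At 4 weeks (0 called) it was 1 within pool A and 1 with DESeq2. In wild type from 2 to 4 weeks (21) it was 52 with library totals, 13 with no filter, 4 within pool A and 32 with DESeq2. In wild type from 4 to 8 weeks (56) it was 8 with library totals, 9 within pool A, 16 within pool B, 37 without the rRNA-rich libraries and 29 without these and animal 36, all of them falls. In the knockout from 2 to 4 weeks (14) it was 65 with library totals, 5 within pool A and 3 within pool B. In the knockout from 4 to 8 weeks (22) it was 40 with library totals, 10 with no filter, 2 within pool A, 11 with a sex term, 47 without the rRNA-rich libraries, 42 without these and animal 36, 13 without the 3 libraries whose labelled sex is in doubt, and 15 to 36 when 1 library was left out, the highest without knockout animal 8. For the change of the knockout effect (14) it was 71 with library totals, 5 within pool A, 2 within pool B, 8 with a sex term, 7 without the rRNA-rich libraries, 6 without these and animal 36, and 9 to 20 when 1 library was left out, the lowest without wild-type animal 34. Single pools hold fewer libraries. The 8-week difference in the log2 ratio of Rpl3l to Rpl3 was -3.47 within pool A, -2.38 within pool B and -3.12 without the rRNA-rich libraries and animal 36, none past the threshold, since few arrangements of libraries remain, and the 6-week ratio has 1 library of each genotype per pool and no value there. With library totals the log2 changes from 2 to 4 weeks in wild type turned to -0.036 for Rpl3l, -0.044 for Rpl23a, -0.095 for Rps27l, -0.16 for Rps2, -0.19 for Rpl28 and -0.25 for Rpl4, and in the knockout to -0.32 for Rpl10. From 4 to 8 weeks in the knockout they turned to 0.31 for Rps26, 0.29 for Rps2, 0.30 for Rpl36, 0.33 for Rps27l and 0.33 for Rpl29, and within pool A Rps27l gave 0.039. The change of the knockout effect turned to 0.0275 for Rpl3l. No paired analysis was possible because each animal number occurs once in the series. Of the fits of a named member without 1 library, the call was lost in 0 of 99 at 8 weeks, 17 of 88 in the knockout from 4 to 8 weeks, 1 of 90 in the knockout from 2 to 4 weeks, 8 of 168 in wild type from 2 to 4 weeks, 0 of 88 in wild type from 4 to 8 weeks and 6 of 198 for the change of the effect.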
